A study of Rattus norvegicus with 12 samples.

Results

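Claudins are the membrane proteins that set what a tight junction lets through, and 10 of them were followed here in the renal cortex and liver of rats that received trichloroethylene (TCE) or its vehicle. The 10 genes were Cldn1, Cldn2, Cldn3, Cldn4, Cldn5, Cldn7, Cldn8, Cldn10, Cldn16 and Cldn19, listed together as claudins of the kidney tubule and the bile canaliculus. They were taken by symbol, with every probe set that carries that single symbol: 12 probe sets of 31099 on the array, and 10 genes of 14217 with a symbol of their own. Cldn1 had 3 probe sets and each of the other genes had 1.

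The arrays fall into 4 groups of 3: renal cortex of TCE rats, liver of TCE rats, renal cortex of control rats and liver of control rats. All rats were males aged 7 to 9 weeks and weighing 190 to 240 g, and the labels describe them both as Wistar-derived and as F-344. TCE, a chlorinated solvent, was given by mouth at 16 mg/kg per day for 3 days in corn oil at 5 ml/kg, and controls had the oil without it. Tissue was taken 24 h after dosing ended. Each treatment was 3 rats, and both tissues came from these animals, so a p-value here measures the spread between 3 rats a group at 1 dose and 1 time.

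A tight junction seals neighbouring epithelial or endothelial cells near the apical surface. Claudins join head to head across the gap, and the set a cell makes decides whether the seal blocks ions or forms a pore for some of them. In the kidney the set changes along the nephron. Cldn2 forms a pore for sodium and water in the proximal tubule, Cldn10 has variants with different ion preference in the proximal tubule and the thick ascending limb, Cldn16 and Cldn19 make the calcium and magnesium route of the thick ascending limb, and Cldn4, Cldn7 and Cldn8 belong to the distal nephron and collecting duct. In the liver the junctions between hepatocytes close off the bile canaliculus, and Cldn1, Cldn2 and Cldn3 are the claudins best known there. Cldn5 is the claudin of endothelium.

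All values are the deposited log2 expression values, on which a difference of 1 is a doubling. The arrays had a shared lowest value of 2.17, at which 27.5% to 29.1% of the probe sets of each array lay, so a value near it gives no more than an upper bound. Within each group the arrays correlated at 0.993 to 0.997 over all probe sets, and no 2 arrays were identical. The tissue labels matched their defining genes. In control rats 7 of 7 hepatocyte markers were lower in kidney than in liver, with a median log2 difference of -10.5, and 7 of 8 proximal tubule markers and 6 of 6 thick ascending limb markers were higher in kidney. Over all genes 38.9% were higher in kidney and 29.7% lower. Apoa1, Tat, Cubn, Slc5a12, Slc12a1 and Kcnj1 lay near the lowest value in the other tissue, so their direction was fixed by the filter. Levels of different probe sets are not compared, because probes differ in how strongly they bind.

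Most of the 10 claudins were higher in kidney than in liver. In control rats all 10 claudins differed between the tissues, 8 higher in kidney and 2 lower (limma, adjusted p 2.3e-08 to 0.00357), where 68.6% of all 10654 genes tested differed, 38.9% higher and 29.7% lower. In TCE rats the same 8 were higher and the same 2 lower (adjusted p 2.35e-08 to 0.00105), where 67.6% of 10642 genes differed, 36.8% higher and 30.8% lower. With that many genes apart between the tissues, the count of 10 is read beside the sizes of the differences. Cldn8, Cldn10, Cldn16 and Cldn19 lay below the filter on dim probe sets in liver and entered these tests through their kidney values alone. Their direction was fixed by that entry, so their calls add no support and their differences are a description. Among the other claudins adjusted p ran from 4.25e-07 for Cldn5 to 0.00357 for Cldn2 in control rats (limma). In TCE rats it ran from 7.59e-07 for Cldn3 to 0.00105 for Cldn2. As these are whole tissues, fewer cells of a type and less RNA per cell cannot be told apart.

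**Figure D1:**
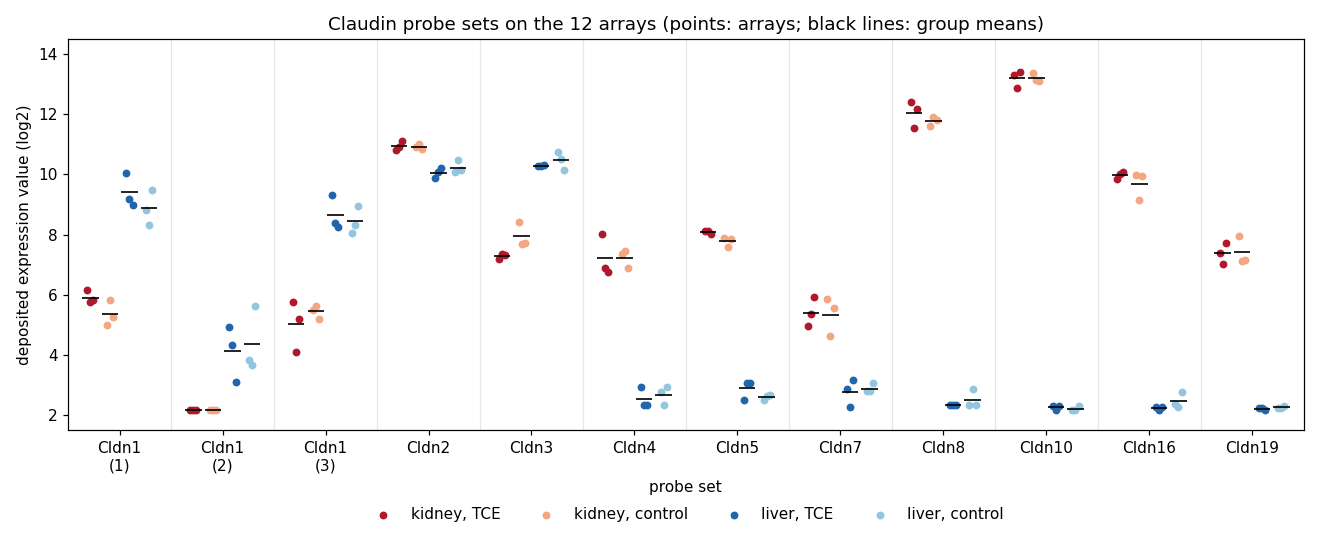
Deposited log2 value (vertical axis) of the 12 claudin probe sets on each of the 12 arrays, with points for arrays and black lines for means of 3 arrays; Cldn1 (1) is its highest probe set. Cldn8, Cldn10 and Cldn16 reach 9.17 to 13.4 in kidney and lie at 2.17 to 2.88 in liver, while Cldn1 and Cldn3 lie higher in liver.

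The claudins of the thick ascending limb were higher in kidney. Cldn10 read 13.29, 12.86 and 13.41 in TCE kidneys and 2.31, 2.18 and 2.31 in TCE livers. In control rats it read 13.37, 13.13 and 13.09 in kidney and 2.18, 2.18 and 2.30 in liver. All 6 liver arrays lay near the lowest value of the scale, so the log2 difference of 10.92 ± 0.16 (SE) in TCE rats and 10.98 ± 0.10 in control rats is a lower bound. The files do not say which Cldn10 variant the probe set reads.

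Cldn16, the gene whose loss in people causes magnesium wasting, read 9.86, 10.02 and 10.07 in TCE kidneys and 2.28, 2.17 and 2.28 in TCE livers. The control values were 9.98, 9.17 and 9.93 in kidney and 2.38, 2.28 and 2.79 in liver. The second control kidney was the lowest of the 6 kidney arrays. The tissue difference was 7.74 ± 0.09 in TCE rats and 7.21 ± 0.26 in control rats. Its partner Cldn19 read 7.39, 7.03 and 7.71 in TCE kidneys and 2.25, 2.25 and 2.17 in TCE livers, against 7.97, 7.11 and 7.15 in control kidneys and 2.25, 2.25 and 2.31 in control livers. The difference was 5.16 ± 0.18 in TCE rats and 5.14 ± 0.24 in control rats.

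The distal nephron claudins were higher in kidney as well, and their liver values near the lowest value make each difference a lower bound. Cldn8, which is needed for the chloride route of the collecting duct, read 12.39, 11.54 and 12.18 in TCE kidneys and 2.33 in all 3 TCE livers. In control rats it read 11.59, 11.91 and 11.82 in kidney and 2.35, 2.88 and 2.35 in liver, and the difference was 9.70 ± 0.22 in TCE rats and 9.25 ± 0.18 in control rats. Cldn4, which works with Cldn8, read 8.04, 6.89 and 6.76 in TCE kidneys and 2.95, 2.34 and 2.34 in TCE livers. Its control values were 7.37, 7.45 and 6.88 in kidney and 2.77, 2.34 and 2.95 in liver, and its differences were 4.69 ± 0.38 in TCE rats and 4.54 ± 0.22 in control rats. Cldn7 read 4.98, 5.35 and 5.92 in TCE kidneys and 2.86, 2.29 and 3.17 in TCE livers. In control rats it read 5.86, 4.63 and 5.56 in kidney and 2.80, 2.80 and 3.06 in liver, and the differences were 2.64 ± 0.32 in TCE rats and 2.46 ± 0.32 in control rats.

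Cldn5, the endothelial claudin, was also far higher in kidney. It read 8.13, 8.12 and 8.04 in TCE kidneys and 2.52, 3.08 and 3.08 in TCE livers, with control values of 7.90, 7.59 and 7.86 in kidney and 2.52, 2.65 and 2.69 in liver. The difference was 5.20 ± 0.17 in TCE rats and 5.16 ± 0.11 in control rats. Endothelial markers were measured in liver as well. The 8 of them averaged 8.28 to 8.50 per array in TCE kidneys and 7.10 to 7.41 in TCE livers, and 8.33 to 8.47 in control kidneys and 6.84 to 7.28 in control livers.

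Cldn2 lay far above the lowest value in both tissues. It read 10.82, 10.91 and 11.11 in TCE kidneys and 9.87, 10.08 and 10.20 in TCE livers. The control values were 10.90, 11.02 and 10.84 in kidney and 10.07, 10.46 and 10.15 in liver, and no kidney array overlapped a liver array. Kidney was 1.86-fold higher in TCE rats (0.89 ± 0.12 log2, adjusted p 0.00105) and 1.62-fold higher in control rats (0.70 ± 0.13, adjusted p 0.00357, limma). The control result depended on scale. The array medians were 3.51 to 3.54 in liver and 3.88 to 3.96 in kidney, and with every array centred on its median the control difference was 0.29 with an adjusted p of 0.0819.

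Cldn1 and Cldn3, barrier claudins of the hepatocyte, were the liver-high pair. Cldn3 read 7.20, 7.37 and 7.34 in TCE kidneys and 10.27, 10.29 and 10.31 in TCE livers, and 8.41, 7.69 and 7.74 in control kidneys and 10.74, 10.51 and 10.14 in control livers. It was 7.95-fold lower in kidney in TCE rats (-2.99 ± 0.08 log2) and 5.72-fold lower in control rats (-2.52 ± 0.25). The highest of the 3 Cldn1 probe sets read 6.15, 5.76 and 5.82 in TCE kidneys and 10.05, 9.17 and 8.98 in TCE livers. Its control values were 5.01, 5.82 and 5.27 in kidney and 8.80, 8.33 and 9.50 in liver, which is 11.2-fold lower in kidney in TCE rats (-3.49 ± 0.30) and 11.4-fold lower in control rats (-3.51 ± 0.35). The other 2 Cldn1 probe sets had the same direction, at -3.63 and -1.96 in TCE rats and -3.00 and -2.21 in control rats. One of these lay at its lowest value, 2.18, on all 6 kidney arrays.

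**Figure D2:**
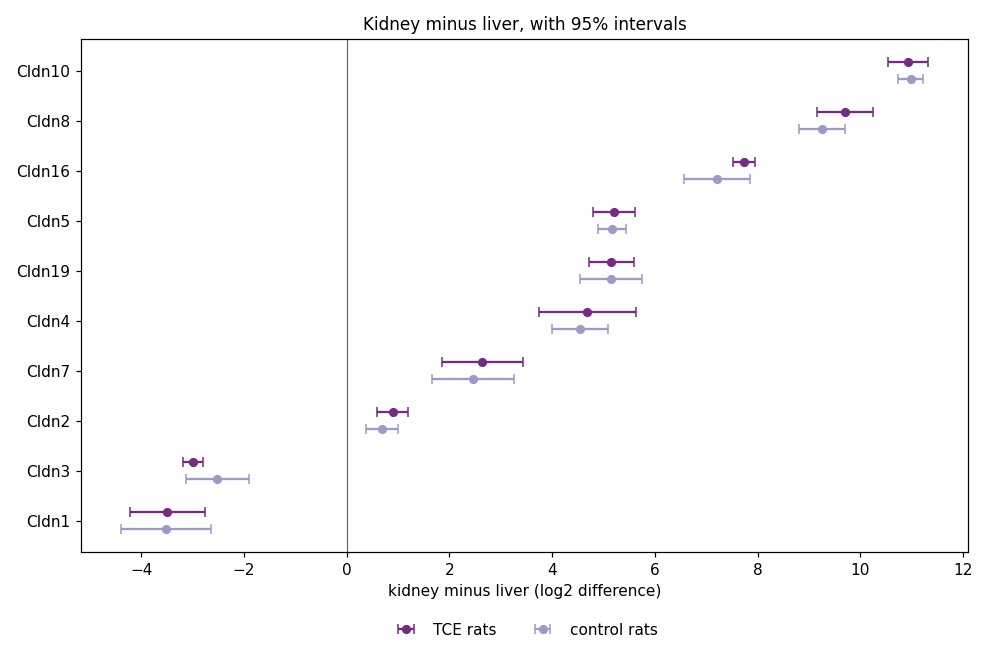
Kidney minus liver log2 difference (horizontal axis) of the 10 claudins in TCE rats and in control rats, with limma's 95% intervals. All points had an adjusted p under 0.05, differences run from 10.98 for Cldn10 to -3.51 for Cldn1 in control rats, and each gene had the same sign in TCE rats. Cldn8, Cldn10, Cldn16 and Cldn19 entered the tests through their kidney values alone.

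The liver-high and kidney-high claudins include adjoining genes. In the RefSeq annotation of rat assembly GRCr8, Cldn1 and Cldn16 are neighbours on chromosome 11 with 0 protein-coding genes between them, and so are Cldn3 and Cldn4 on chromosome 12. In both pairs the first was lower in kidney than in liver and the second higher. The sequences before the starts of the liver-high pair and of 3 kidney-high claudins near the lowest value in liver are shown so that their base composition can be seen next to these levels. Each is the 250 bases before the RefSeq gene start, 5′ to 3′ on the gene's strand: Cldn1 at chr11:87926126-87926375 on the plus strand, Cldn3 at chr12:27346548-27346797 on the minus strand, Cldn8 at chr11:41364331-41364580 on the minus strand, Cldn10 at chr15:102269608-102269857 on the plus strand and Cldn16 at chr11:87814397-87814646 on the minus strand of GRCr8. Capitals mark matches, on either strand, to the GC box GGGCGG, the box CCAAT, the TATA box as TATAAA, the E-box CAGGTG and the HNF1-type letters GTTAAT.
Cldn1 promoter: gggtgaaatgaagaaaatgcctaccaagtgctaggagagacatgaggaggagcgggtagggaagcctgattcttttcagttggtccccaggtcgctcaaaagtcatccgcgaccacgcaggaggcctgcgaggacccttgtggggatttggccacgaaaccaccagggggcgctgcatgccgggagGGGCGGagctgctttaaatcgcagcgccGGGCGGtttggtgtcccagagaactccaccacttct
Cldn3 promoter: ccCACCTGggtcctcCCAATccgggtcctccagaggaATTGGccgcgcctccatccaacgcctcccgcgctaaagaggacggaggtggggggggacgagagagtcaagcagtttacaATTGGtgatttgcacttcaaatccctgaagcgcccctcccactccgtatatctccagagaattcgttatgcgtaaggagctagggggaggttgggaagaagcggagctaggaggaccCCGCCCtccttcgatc
Cldn8 promoter: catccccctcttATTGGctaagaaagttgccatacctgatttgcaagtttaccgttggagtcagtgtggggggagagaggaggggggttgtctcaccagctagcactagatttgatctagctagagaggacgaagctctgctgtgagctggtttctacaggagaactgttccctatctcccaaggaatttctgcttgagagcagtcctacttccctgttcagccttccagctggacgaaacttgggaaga
Cldn10 promoter: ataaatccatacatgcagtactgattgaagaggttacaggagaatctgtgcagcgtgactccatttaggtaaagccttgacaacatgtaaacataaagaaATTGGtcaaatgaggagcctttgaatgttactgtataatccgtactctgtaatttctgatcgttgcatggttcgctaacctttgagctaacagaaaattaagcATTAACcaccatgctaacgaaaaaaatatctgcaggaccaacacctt
Cldn16 promoter: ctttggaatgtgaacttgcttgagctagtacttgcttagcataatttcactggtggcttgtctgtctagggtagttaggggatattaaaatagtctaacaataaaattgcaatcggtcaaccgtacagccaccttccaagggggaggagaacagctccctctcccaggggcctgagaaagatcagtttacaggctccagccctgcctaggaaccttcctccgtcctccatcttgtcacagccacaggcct

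Of the 10 claudins 8 had an entry among the 33469 RefSeq promoters searched, and Cldn2 and Cldn4 are named only. The liver-high Cldn1 and Cldn3 each had 59.2% G and C in this window, against 50.4% for Cldn8, 49.2% for Cldn16 and 38.0% for Cldn10, and a median of 51.2% over all promoters. The composition did not follow tissue throughout, since Cldn5, Cldn7 and Cldn19, all higher in kidney, had 58.4% to 65.6%. CpG, observed over expected from base content, was 0.654 for Cldn1 and 0.685 for Cldn3, against 0.191 for Cldn8, 0.199 for Cldn16, 0.231 for Cldn19, 0.475 for Cldn5, 0.554 for Cldn10 and 0.822 for Cldn7, with a median of 0.383 over all promoters. The GC box letters GGGCGG were in 5 of 8 windows (30.5% of all), CCAAT in 4 (34.0%), the E-box letters CAGGTG in 2, Cldn3 and Cldn7 (15.9%), GTTAAT in 1, Cldn10 (6.5%), and TATAAA in 0 (12.9%). These motifs share no letters with each other in the windows printed, and a match is a match of letters only. As the variant read by the Cldn10 probe set is not given, its window may not belong to the transcript measured.

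In kidney, TCE gave no claudin an adjusted p under 0.05. Of 10 claudins tested 0 passed, as did 0% of 10563 genes. At an unadjusted p under 0.05 there were 2 claudins, Cldn3 and Cldn5, against 14.8% of all genes, and these 2 were also the ones whose TCE and control values did not overlap, against 20.1% of all genes. A count of 2 in 10 is close to those shares.

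Cldn3 had 7.20, 7.37 and 7.34 in TCE kidneys against 8.41, 7.69 and 7.74 in control kidneys. Every TCE value was under every control value, and the first control kidney stood highest. The difference was -0.65 ± 0.21 log2 (95% interval -1.16 to -0.13, unadjusted p 0.0230, adjusted p 0.283, limma), a ratio of 1.56. Without the first control kidney it was -0.41. Hepatocyte markers varied from array to array on these kidneys, with overlapping means of 4.58, 2.92 and 3.11 in TCE kidneys and 4.55, 6.41 and 3.56 in control kidneys. Of the 5 hepatocyte markers tested 0 had an unadjusted p under 0.05, against 14.8% of all genes (limma). Their summed linear level ran from 73.5 to 2131 in TCE kidneys and from 292.3 to 7694 in control kidneys, and Apoa1 and Tat lay near the lowest value in both groups. Without the second control kidney, which had the highest hepatocyte mean, the Cldn3 difference was -0.77. The part of hepatocyte RNA in the Cldn3 values was not tested.

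Cldn5 had 8.13, 8.12 and 8.04 in TCE kidneys against 7.90, 7.59 and 7.86 in control kidneys, again without overlap. The difference was 0.31 ± 0.10 log2 (0.07 to 0.56, unadjusted p 0.0204, adjusted p 0.271, limma), a ratio of 1.24. Podocytes, the cells that wrap the glomerular capillaries, also make Cldn5, and their markers lay higher on the same arrays. The mean of 5 podocyte markers was 8.82, 8.68 and 8.50 in TCE kidneys against 7.94, 8.17 and 8.08 in control kidneys, and their summed linear level was 2232 to 2859 against 1644 to 1883. All 5 had a difference above 0 and none lay near the lowest value. Their median was 0.65 against 0 for all genes. Of the 5, 4 had an unadjusted p under 0.05, against 14.8% of all genes, and 0 had an adjusted p under 0.05 (limma). Nephrin, Nphs1, read 8.49, 8.32 and 8.02 in TCE kidneys against 7.20, 7.49 and 7.53 in control kidneys (0.87 ± 0.15, adjusted p 0.193, limma). For Ptpro and Podxl, which encode membrane proteins of the podocyte, the differences were 0.69 ± 0.11 and 0.65 ± 0.15. The 8 endothelial markers averaged 8.42, 8.28 and 8.50 in TCE kidneys against 8.47, 8.34 and 8.33 in control kidneys. Of these 8, 0 had an unadjusted p under 0.05, against 14.8% of all genes (limma). The part of either cell type in the Cldn5 values was not tested.

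**Figure D3:**
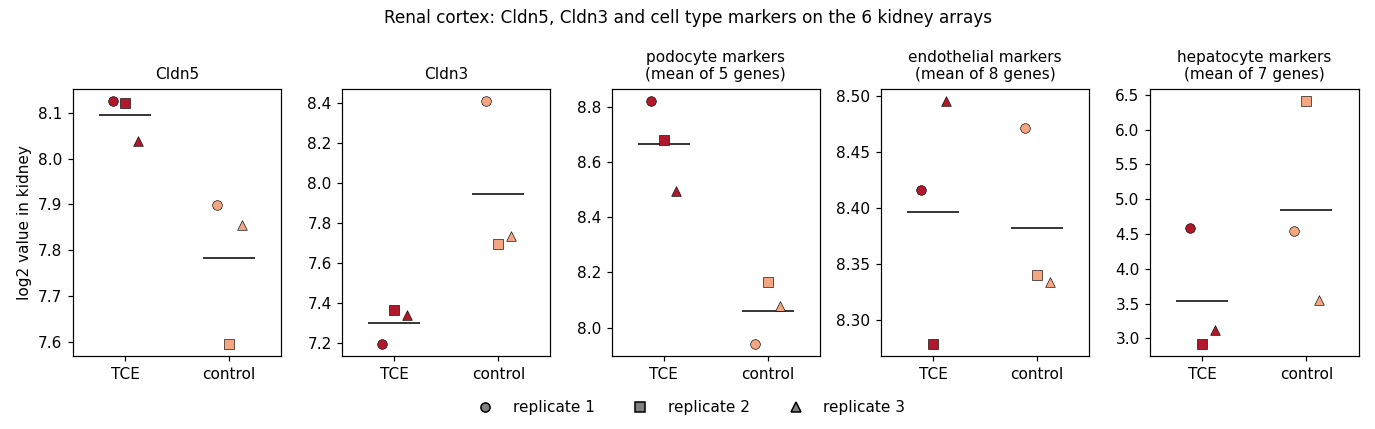
Log2 values on the 6 kidney arrays (vertical axis) of Cldn5, Cldn3 and the mean of podocyte, endothelial and hepatocyte markers, TCE left and control right, with a marker shape for each replicate and lines for means. Cldn5 and the podocyte mean lie higher in all 3 TCE kidneys, Cldn3 lies lower, and endothelial values overlap.

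The other 8 claudins overlapped between TCE and control kidneys. The highest Cldn1 probe set differed by 0.55 ± 0.23 (-0.04 to 1.13, adjusted p 0.356, limma), while another Cldn1 probe set pointed the other way at -0.43 ± 0.48 and the last lay at its lowest value throughout. Of the thick ascending limb pair, Cldn16 differed by 0.29 ± 0.23 (-0.29 to 0.88), or by 0.028 without the second control kidney, and Cldn19 by -0.03 ± 0.29 (-0.77 to 0.70). Cldn10 differed by -0.01 ± 0.17 (-0.42 to 0.41) and Cldn2 by 0.02 ± 0.10 (-0.22 to 0.27). Cldn8 differed by 0.26 ± 0.24 (-0.33 to 0.85), and by 0.086 to 0.51 without single arrays. The intervals of Cldn4 and Cldn7 were wide, from -0.95 to 0.94 and from -0.92 to 1.05. Intervals of that width leave the size of any change in these 2 genes undetermined. Those of Cldn1, Cldn8, Cldn16 and Cldn19 were also wide and bound a change only loosely.

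The segment markers gave the same count of 0. Of thick ascending limb markers 0 of 6 passed in kidney and 0 had an unadjusted p under 0.05, with a mean of 12.7, 12.4 and 12.9 in TCE kidneys against 12.7, 12.3 and 12.6 in control kidneys. Bsnd, a chloride channel subunit, differed by 0.22 ± 0.11 and Umod, uromodulin, by 0.10 ± 0.07. Of 8 proximal tubule markers 1 had an unadjusted p under 0.05, the endocytic receptor gene Cubn (0.16 ± 0.06). In the collecting duct, 1 of 7 principal cell markers had one, the sodium channel gene Scnn1g (0.35 ± 0.10), and 1 of 4 intercalated cell markers did, the transcription factor gene Foxi1 (0.34 ± 0.09). Over all genes the share was 14.8%.

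In liver, 6 of the 10 claudins were bright enough to test and 0 passed (limma, 0% of 10552 genes). None of the 6 had an unadjusted p under 0.05, against 14.7% of all genes, and all 6 overlapped between TCE and control, against 20.5% of genes that did not. Cldn8, Cldn10, Cldn16 and Cldn19 lay below the filter in liver.

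**Figure D4:**
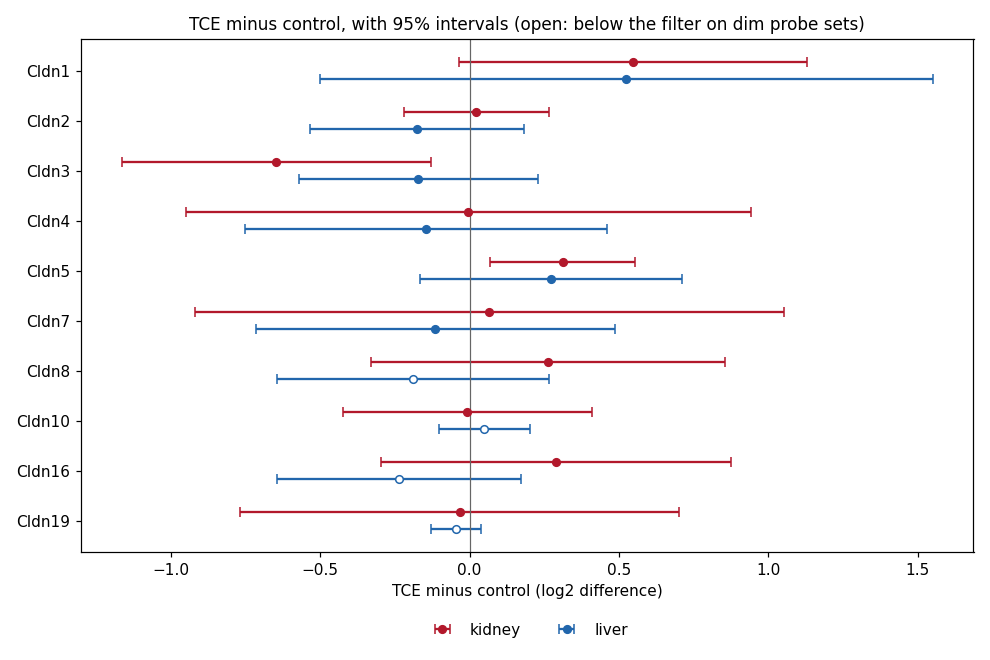
TCE minus control log2 difference (horizontal axis) of the claudins in kidney and in liver, with limma's 95% intervals and open points for genes below the filter on dim probe sets. No filled point has an adjusted p under 0.05, and the intervals of Cldn3 and Cldn5 in kidney lie off 0.

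Of the canaliculus claudins, Cldn3 read 10.27, 10.29 and 10.31 in TCE livers against 10.74, 10.51 and 10.14 in control livers, with a difference of -0.17 ± 0.16 (-0.57 to 0.23). The 3 TCE livers lay within the range of the controls. Cldn2 differed by -0.18 ± 0.14 (-0.53 to 0.18). Cldn1 spread over a wider range, with 10.05, 9.17 and 8.98 in TCE livers against 8.80, 8.33 and 9.50 in control livers, and differed by 0.52 ± 0.41 (-0.50 to 1.55, adjusted p 0.590, limma). Its other 2 probe sets gave 0.20 ± 0.40 and -0.25 ± 0.79. Cldn4, Cldn5 and Cldn7, close to the lowest value in liver, differed by -0.14 ± 0.24, 0.27 ± 0.17 and -0.11 ± 0.24. In each tissue an RNA measure was apart between TCE and control, while another overlapped between the groups. The Gapdh control probe sets read 1.70, 1.56 and 1.21 higher at the 3′ end than at the 5′ end in TCE livers, against 0.78, 0.80 and 0.86 in control livers, a gap that widens where RNA is shorter. In kidney it was 0.59, 0.87 and 0.51 in TCE kidneys against 1.02, 0.85 and 1.05 in control kidneys, with overlap. The same gap for beta-actin was 5.67, 5.09 and 5.22 in TCE livers against 5.24, 4.31 and 4.36 in control livers, with overlap. In kidney the beta-actin gap was 4.36, 4.36 and 4.20 in TCE kidneys against 4.49, 4.40 and 4.56 in control kidneys, every TCE value under every control value. The part of RNA length in the claudin values of either tissue, those of Cldn3 and Cldn5 in kidney included, was not tested.

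No claudin was shown to respond differently in the tissues. The effect in kidney minus that in liver passed for 0 of 10 claudins, against 0.535% of 10652 genes, and 0 had an unadjusted p under 0.05, against 17.5% (limma). Cldn8, Cldn10, Cldn16 and Cldn19 entered this test through their kidney values alone, since they were below the filter in liver, and for these 4 the test says little about the tissues. Of the 6 claudins tested in both tissues, Cldn3 gave -0.47 ± 0.27 (-1.08 to 0.13, unadjusted p 0.112), and -0.24 without the first control kidney. The other 5 lay between 0.02 and 0.20. Among them Cldn4, Cldn5 and Cldn7 were close to the lowest value in liver, so their tests also say little about the tissues. Cldn16 gave 0.53 ± 0.29, and 0.27 without the second control kidney, and Cldn8 gave 0.45 ± 0.30, and 0.28 without the second control liver.

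Other members of the junction were measured alongside. Among 11 further claudins 6 had a probe set of their own, and 0 of the 3 tested in each tissue passed for TCE. In control rats Cldn14 and Cldn12 were lower in kidney than in liver (-4.94 ± 0.10 and -0.85 ± 0.08) and Cldn6 and Cldn11 higher (2.72 ± 0.26 and 1.03 ± 0.18). That is 2 of 4 in each direction, where 38.9% of all genes were higher and 29.7% lower. Cldn14 in kidney, at a mean of 2.21, and Cldn11 in liver, at 2.17, lay near the lowest value. They entered this test through the other tissue alone, so their direction was fixed and their calls add no support. Of 30 listed tight junction proteins 27 were measured and tested. In control rats 12 were higher and 11 lower in kidney than in liver, where 38.9% of all genes were higher and 29.7% lower (median 0.00 against 0.10 for all genes). The 3 with the smallest p, the polarity genes Pard6b, Pals1 and Patj, differed by 3.71 ± 0.12, 2.13 ± 0.10 and 1.39 ± 0.08. Other polarity genes of the list went both ways. Crb3 was higher in kidney (1.42 ± 0.19), and Pard3, Mpdz and Prkci were lower (-1.21 ± 0.18, -0.81 ± 0.12 and -0.60 ± 0.10).

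For TCE 0 of 27 tight junction proteins passed in either tissue (limma). In kidney 5 had an unadjusted p under 0.05, against 14.8% of all genes, 2 with a difference above 0 and 3 below, and the smallest p was that of the scaffold gene Mpdz (0.43 ± 0.07, adjusted p 0.188, limma). In liver 6 did, against 14.7% of all genes, 3 each way, led by the scaffold gene Patj (0.47 ± 0.10, adjusted p 0.179). Ybx3, which encodes a junction-associated DNA-binding protein, was below 0 in both tissues, at -0.35 ± 0.09 in kidney and -0.50 ± 0.14 in liver. Medians were 0.04 in kidney and 0.03 in liver, against 0 and 0.03 for all genes.

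Of 26 listed regulators of claudins 20 were measured. In control rats 14 were higher in kidney than in liver and 2 lower of 18 tested, against 38.9% and 29.7% of all genes, with a median of 2.25 against 0.10. These include Mmp9 and Vdr, at 2.23 and 2.17 in control liver, which entered this test through their kidney values alone. Their direction was fixed, and the call of Mmp9 adds no support. Casr, the calcium-sensing receptor, differed by 7.81 ± 0.12, the collecting duct transcription factor gene Tfcp2l1 by 7.26 ± 0.08 and the kinase gene Stk39 by 6.77 ± 0.13. Casr lay near the lowest value in control liver, at 2.56, so its difference is a lower bound. For TCE 0 of 18 passed in kidney and 0 of 16 in liver (limma). In kidney 2 had an unadjusted p under 0.05, against 14.8% of all genes, Tfcp2l1 (0.27 ± 0.07) and the calcium channel gene Trpv4 (-0.44 ± 0.12), and in liver 2 did, against 14.7%, the hepatocyte transcription factor gene Hnf4a (0.40 ± 0.12) and the kinase gene Oxsr1 (0.35 ± 0.14).

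The genes whose kidney values ran most alike with each claudin over the 6 kidney arrays were Eci2 and Rp2 for Cldn5, Atg4d and Ift172 for Cldn3, Hnrnpd and Cldn11 for Cldn8, Frat2 and Tdp1 for Cldn16, Proser2 and Serinc2 for Cldn10, and Tmod4 and Ier2 for Cldn19. They were Hcfc2 and Senp6 for Cldn1, Lama4 and Asb1 for Cldn2, Tmub2 and Hells for Cldn4, and Lmo7 and Tmed3 for Cldn7. The first 2 pairs had Pearson r of 0.996 and 0.992 with Cldn5 and 0.993 and 0.992 with Cldn3. In liver the nearest were Iqsec1 and Erbin for Cldn1, Nckap1 and Snx3 for Cldn2, Antxr2 and Puf60 for Cldn3, Resp18 and Cand2 for Cldn4, Dph3 and Plekhn1 for Cldn5, and Ddx10 and Nudcd2 for Cldn7. Over all members r was at least 0.961. With 6 arrays and 10563 genes to choose from in kidney, such values are a description of these arrays, which share treatment and tissue.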

How the data were processed

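Total RNA of liver and renal cortex was measured on rat expression arrays, 12 in all. The authors deposited 1 table of log2 values, a scale inferred from the range. The packages affy and limma were used, per the submitters' processing notes; the normalization is not given in the sources used here. A probe set was named only where GEO's platform annotation gives 1 symbol (20826 probe sets, 14217 genes), a gene was represented by its probe set with the highest mean over all arrays, and genes whose mean over a comparison's arrays was not above the 40th percentile of probe sets were left out (a value of 2.45 in liver). Groups were compared in R 4.3.3 with the package limma 3.58.1 (lmFit, then eBayes, two-sided, Benjamini-Hochberg over all genes, threshold 0.05), checked on simulated data. SE is limma's. The number of arrays, 3 per group, limits precision. Promoters and gene order came from RefSeq tables of GRCr8.

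The claudins, the lists (other claudins, tight junction proteins, claudin regulators and 17 lists of cell type markers) and the tests were chosen with earlier results of these data known. All 10 claudins were named whatever their values. Of each list, members past the threshold in a TCE comparison were named, otherwise up to 3 with the smallest p in each tissue, and of genes most alike the 2 with the highest correlation. Genes named for tissue differences between control rats were the 3 of a list with the smallest p, or all of 4 or fewer, a choice made after their values were seen. Alternatives covered scale, filter, choice of probe set, the fit and leaving out each array. Where members of the remaining marker lists passed a test of the difference of TCE effects, they are given in the closing section.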

Additional observations from a re-analysis of the deposited data

How the results depend on the processing

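With 3 rats a group, small effects of TCE on single claudins could not be resolved, and levels near the lowest value carry little information. The counts of claudins past the threshold, 0 in the 3 TCE comparisons and 10 in both tissue comparisons, held under the alternatives run with 2 exceptions. With a filter at the 60th percentile only 6 claudins were tested in each tissue comparison, and all 6 passed, and with medians centred 9 passed in control rats. The tissue counts include Cldn8, Cldn10, Cldn16 and Cldn19, which entered through their kidney values alone and whose calls add no support. Of these, Cldn8, Cldn10 and Cldn16 were among the 6 at the stricter filter. Cldn3 in kidney ranged from -0.77 to -0.41 without single arrays (adjusted p 0.252 to 0.590, limma) and Cldn5 from 0.22 to 0.37 (0.262 to 0.589). Values near 0 changed sign. With quantile normalization applied again, Cldn2 in kidney was -0.0074 and Cldn5 in the difference of effects -0.013. With medians centred, Cldn4 and Cldn10 in kidney were 0.012 and 0.0080, and with probe sets averaged, Cldn1 in the difference of effects was -0.12. Leaving out single arrays gave -0.31 to 0.13 for Cldn7 in liver. In kidney it gave 0.028 to 0.43 for Cldn16, -0.057 to 0.085 for Cldn2, -0.41 to 0.23 for Cldn4, -0.29 to 0.32 for Cldn7, -0.12 to 0.16 for Cldn10 and -0.20 to 0.25 for Cldn19. In the difference of effects it gave -0.29 to 0.35 for Cldn1, -0.26 to 0.37 for Cldn4, -0.15 to 0.13 for Cldn5, -0.18 to 0.44 for Cldn7, -0.17 to 0.11 for Cldn10 and -0.15 to 0.29 for Cldn19. Centring on medians moved the median of all genes in the tissue comparison of control rats to -0.32, against 0.10 as deposited, and the share of calls higher in kidney to 35.0%, against 56.7%; in TCE rats the share was 34.2%, against 54.4%. Cldn2 alone lost its call there, in control rats. Whether a number stands for the same animal in both tissues is unknown from the labels, and the fits treat the arrays as independent. Same-numbered arrays of TCE and control rats correlated at -0.095 to 0.0098 in their deviations, and kidney with liver at -0.007 to 0.064 in TCE rats and 0.048 to 0.080 in control rats, where arrays of different number gave -0.058 to -0.0073. In control rats every same-numbered kidney and liver pair was thus above every pair of different number. In TCE rats the 2 kinds overlapped, with -0.070 to 0.053 for different numbers. These correlations do not settle whether the numbers mark pairs, and the main fits did not use them as pairs. With the replicate number as a block, 0 claudins passed in the TCE comparisons and 10 in each tissue comparison. For the difference of effects the block joined the kidney and liver arrays of the same treatment and number, as if from the same rat. With it the calls of the difference of effects over all genes became 0, against 57. Over all genes, liver gave 17 calls with no filter and 182 with the spread taken from all 12 arrays, against 0; kidney gave 2 with no filter, 1 with the stricter filter and 20 with all 12 arrays, against 0; the difference of effects gave 198 over all probe sets and 0 to 108 without single arrays.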

Other observations

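Of the 20 lists, 3 had a member past the test of the kidney minus liver difference in TCE effect (limma). None of these calls held with kidney and liver arrays of the same treatment and number joined as a block. Ptpro, a podocyte gene, gave 0.95 ± 0.18 (adjusted p 0.0497, 0.143 with the block), and the call held in 1 of 12 fits that each left out an array. It read 8.04, 7.997 and 7.84 in TCE kidneys against 7.11, 7.43 and 7.28 in control kidneys. In liver it lay close to the lowest value, at 2.66, 2.67 and 2.33 in TCE livers against 2.71, 2.78 and 2.96 in control livers. The call thus rests in part on a liver difference of -0.26 ± 0.13 between such values. Slc4a1, the chloride and bicarbonate exchanger of intercalated cells and red blood cells, gave 1.38 ± 0.24 (adjusted p 0.0423, 0.144 with the block), and its call held in 2 of those 12 fits. Its liver difference was -1.06 ± 0.15 and its kidney difference 0.32 ± 0.16. Both red blood cell markers measured had a difference below 0 in liver as well, Hbb of -0.74 ± 0.19 and Alas2 of -1.33 ± 0.45, with unadjusted p of 0.00906 and 0.0278 and adjusted p of 0.229 and 0.287 (limma), and their part in the Slc4a1 values was not tested. Tagln, a smooth muscle gene of the mesenchyme list, gave -1.36 ± 0.16 (adjusted p 0.0142, 0.143 with the block), and its call held in 10 of the 12 fits. In all 20 lists 0 members passed within either tissue.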
